A study of Homo sapiens with 9 samples.

Results

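The 10 genes described here act in fatty acid and glycerolipid synthesis and were measured in Huh7 cells, a long-used human line of hepatocellular carcinoma, after knockdown of ZMAT2. They were the 10 rows, of 27421 genes in the deposited expression table, named ACLY, ACACA, FASN, ELOVL6, SCD, FADS1, FADS2, ACSL3, GPAM and SREBF1. The rows were taken by name, from a list drawn up with earlier results of these data known, and each name had 1 row. The 9 libraries came from HUH7 cells and formed 3 groups of 3: shZMAT2-1, shZMAT2-2 and a control, called huh7-control in the labels. ZMAT2 encodes a spliceosomal protein with a zinc finger. The study's design text asks if its splicing function bears on the progress of this cancer. The labels give no vector, dose or time for either short hairpin arm. They do not say what the control cells received, whether each arm was a clone or a pool, or whether replicates were separate cultures. The p-values therefore measure only the spread between these samples, which may be technical.

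Hepatocytes build fatty acids from citrate that leaves the mitochondria. ACLY splits the citrate to acetyl-CoA, ACACA carboxylates that to malonyl-CoA, and FASN assembles palmitate. ELOVL6 lengthens the chain and SCD desaturates it, while FADS1 and FADS2 are desaturases of polyunsaturated fatty acid synthesis. ACSL3 activates fatty acids for use, and GPAM places the first acyl chain on glycerol-3-phosphate, the entry to triglyceride and phospholipid synthesis. SREBF1 encodes the transcription factor SREBP1, which is known to drive most of these genes in the liver, and hepatocellular carcinomas often express lipogenic enzymes at high levels.

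RNA was poly(A)-selected and sequenced from strand-specific libraries, and the values are FPKM, that is, fragments divided by transcript length in kilobases and by the fragments of the whole library. Depth recovered from the values ran from 18430000 to 23740000 fragments, so that 3 fragments from a transcript of 1 kb come to between 0.126 and 0.163 FPKM. All 10 genes lie far above that. ZMAT2 itself had 15.2, 12.8 and 13.2 FPKM in shZMAT2-1 and 22.1, 20.3 and 20.8 FPKM in shZMAT2-2, against 37.5, 32.8 and 39.2 FPKM in the control. The knockdown and control libraries did not overlap (log2 fold change of the mean of both arms -1.06, limma adjusted p = 0.014). An exact two-sided permutation test of the 6 against the 3 libraries gave p = 0.0119, the smallest that 84 assignments allow. Of the hepatocyte markers, 9 of 9 were at 1 FPKM or more in at least 3 libraries. Their summed level was 4797 to 5832 FPKM in shZMAT2-1, 4182 to 4882 FPKM in shZMAT2-2 and 3294 to 5925 FPKM in the control. Adipocyte markers summed to at most 0.207 FPKM in every library. The other marker lists were low as well, at up to 3.93 FPKM for fibroblasts, 1.70 FPKM for endothelium and 8.77 FPKM for leukocytes, where CD14 held nearly the whole sum and PTPRC was at or near 0. Cholangiocyte markers summed to 60.6 to 87.0 FPKM over the 3 groups, with KRT7 at or near 0. The sum came from SOX9 (31.2 to 73.3 FPKM), KRT19 (7.43 to 20.6 FPKM) and EPCAM (6.32 to 11.5 FPKM). KRT19 was higher in every knockdown library (13.4 to 20.6 FPKM) than in every control library (7.43 to 13.2 FPKM). SOX9 and EPCAM overlapped between the knockdown and control libraries.

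Control replicate 2 stood apart and enters every comparison with the control below. The 13 mitochondrially encoded genes took 8.25%, 16.4% and 7.70% of the fragments in the shZMAT2-1 libraries and 27.0%, 14.5% and 16.6% in the shZMAT2-2 libraries. They took 43.2% in control replicate 2, and 7.86% and 8.28% in control replicates 1 and 3. Because FPKM divides by all fragments, a higher mitochondrial share lowers the FPKM of nuclear genes by construction. Values scaled to the same total over nuclear genes in each library are therefore given further below.

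Taken over all 11245 genes tested, no gene of the 10 passed the threshold of a limma adjusted p under 0.05 in either arm or in their mean. GPAM came closest, at 55.7% of the control mean in shZMAT2-1 and 50.3% in shZMAT2-2. It was also the only one of the 10 with an unadjusted p under 0.05 in each arm and in the mean of both arms. The thresholds were rarely passed by any gene: 0.08% of all tested genes were called in shZMAT2-1, 0.587% in shZMAT2-2 and 0.542% in the mean of both arms. The estimates of the 10 genes nevertheless lay mostly on the lower side. In shZMAT2-1 7 of 10 were below 0, with a median log2 fold change of -0.15, beside 27.1% and a median of 0.16 over all tested genes. That count turned with the scaling: with TPM 8 of 10 were above 0 (median 0.058), and on a nuclear scale, described below, 9 of 10 were below 0 (median -0.38). In shZMAT2-2 10 of 10 were below 0, with a median of -0.27, beside 41.6% and a median of 0.05 over all tested genes. Both arms were set against the same 3 control libraries, so these 2 counts are not independent. In the mean of both arms 9 of 10 were below 0, beside 28.2% of all tested genes. The median was -0.18 for the 10 genes and 0.10 for all tested genes, a gap of 0.27 on the log2 scale. Leaving out 1 library moved the median of the 10 genes between -0.30 and -0.057 in shZMAT2-1, between -0.49 and -0.15 in shZMAT2-2 and between -0.42 and -0.11 in the mean of both arms, with the lowest value in each case without control replicate 2. Over the 20 other ways of processing the values that gap lay between 0.19 and 0.32. In the 19 of them that kept all 10 genes, 9 or 10 lay below the median of all genes, and a filter of 5 FPKM left out GPAM and had 8 of 9 below it. Same-numbered libraries of shZMAT2-1 and the control deviated together, although the labels give no pairing. Replicate 2 had the highest mitochondrial share of its group in both, at 16.4% and 43.2%. A fit of those 6 libraries alone with the replicate number as a block was added after seeing the data. It called 0 of the 10 in shZMAT2-1 (GPAM limma adjusted p = 0.14), beside 2.21% of all tested genes. Without the block, a fit of the same 6 libraries called 0% of all tested genes.

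**Figure D1:**
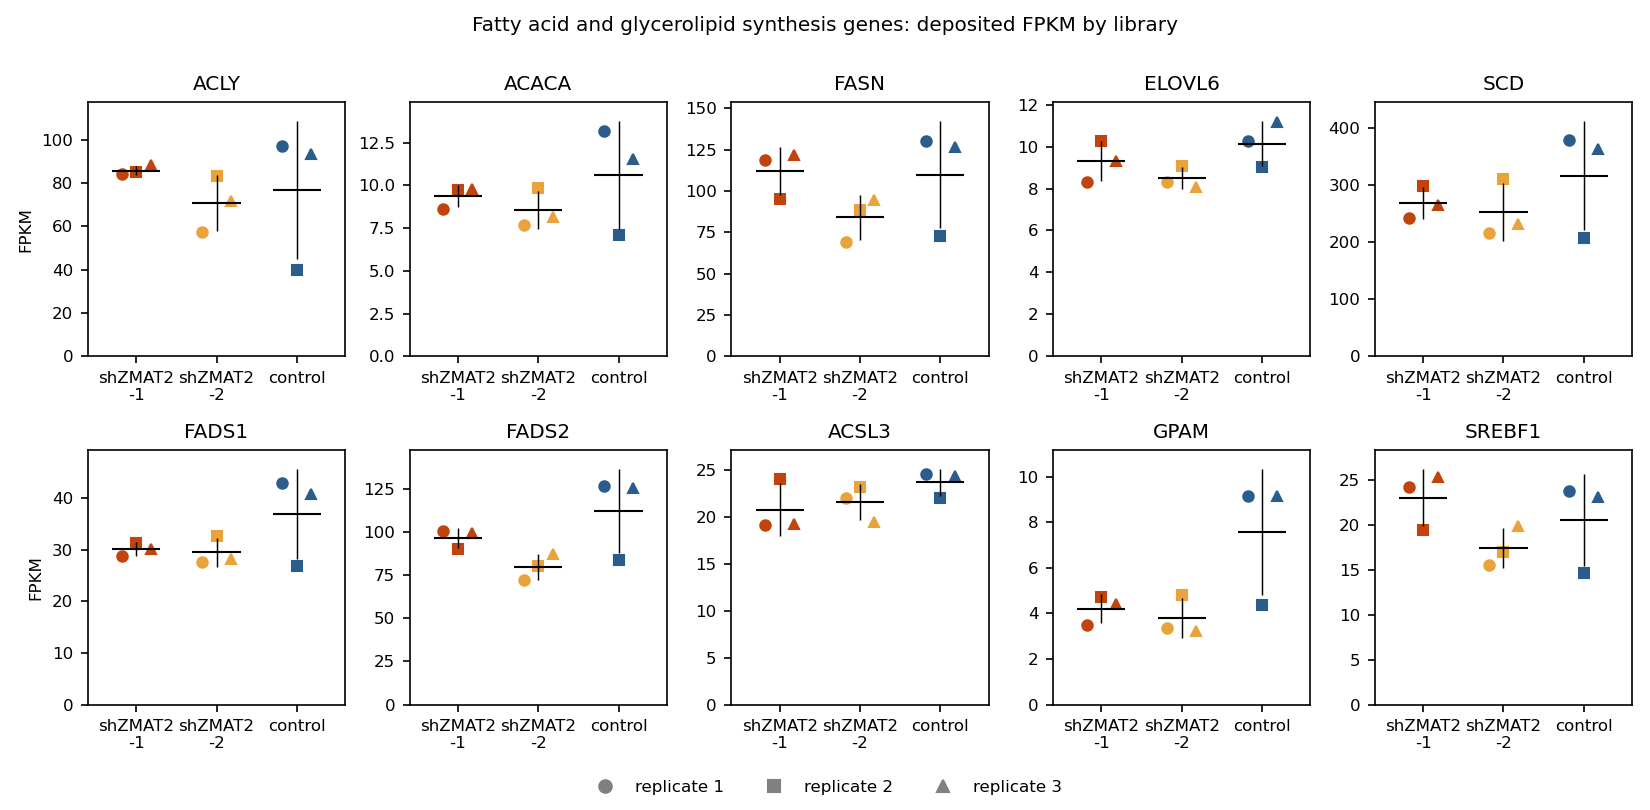
Level in FPKM of each of the 10 genes (1 panel each, linear axis from 0) in the 3 libraries of shZMAT2-1, shZMAT2-2 and the control. Points are libraries, and lines are the mean and SD. Control replicate 2 is the low control point in most panels, as for ACLY at 39.8 FPKM against 96.8 and 93.3 FPKM in the other control libraries.

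The first steps, which supply acetyl-CoA and build the chain, were followed by ACLY, ACACA and FASN. ACLY (ENSG00000131473, chromosome 17, 41866917 to 41930542 in the deposited table) had 84.0, 84.9 and 88.1 FPKM in shZMAT2-1 and 57.5, 83.4 and 71.6 FPKM in shZMAT2-2, against 96.8, 39.8 and 93.3 FPKM in the control. The knockdown libraries lay between the lowest and the highest control library. Its log2 fold change of 0.12 in the mean of both arms had a 95% interval of -0.52 to 0.76, the widest of the 10 genes. ACACA (ENSG00000278540, chromosome 17, 37084992 to 37406836), the acetyl-CoA carboxylase that makes malonyl-CoA in the cytosol, had 8.63, 9.72 and 9.77 FPKM in shZMAT2-1 and 7.71, 9.84 and 8.16 FPKM in shZMAT2-2. The control libraries had 13.2, 7.07 and 11.5 FPKM, so replicates 1 and 3 of the control were above all 6 knockdown libraries and replicate 2 below them. The estimate was -0.18 (95% interval -0.62 to 0.25).

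FASN (ENSG00000169710, chromosome 17, 82078338 to 82098294), the palmitate synthase, had the largest difference between the arms among the 10 in FPKM as deposited. It had 119, 95.3 and 122 FPKM in shZMAT2-1 and 69.0, 88.6 and 94.6 FPKM in shZMAT2-2, against 130.3, 72.6 and 127 FPKM in the control. All shZMAT2-2 libraries lay below all shZMAT2-1 libraries, and control replicate 2 lay among the shZMAT2-2 libraries. The log2 fold change against the control was 0.06 (SE 0.27) in shZMAT2-1 and -0.35 (SE 0.27) in shZMAT2-2. The direct difference, shZMAT2-2 against shZMAT2-1, was -0.41 (SE 0.27) and did not pass (limma adjusted p = 0.66). On the nuclear scale, described below, it was -0.16, and ACSL3 (0.30) and FADS1 (0.21) differed more. The ratio of FASN to ACACA averaged 12.01 ± 2.02 in shZMAT2-1, 9.85 ± 1.51 in shZMAT2-2 and 10.4 ± 0.569 in the control (SD, n = 3 each), with overlapping groups.

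Chain lengthening and desaturation were followed by ELOVL6, SCD, FADS1 and FADS2. ELOVL6 (ENSG00000170522, chromosome 4, 110045846 to 110199199), which extends palmitate to stearate, had 8.33, 10.2 and 9.30 FPKM in shZMAT2-1 and 8.31, 9.08 and 8.09 FPKM in shZMAT2-2, against 10.3, 9.02 and 11.1 FPKM in the control. Its control replicate 2 was close to the other libraries, and the estimate of -0.17 had a 95% interval of -0.49 to 0.15. SCD (ENSG00000099194, chromosome 10, 100347233 to 100364826), which makes oleate from stearate, was the most abundant of the 10 per kilobase. It had 243, 298 and 266 FPKM in shZMAT2-1 and 217, 311 and 232 FPKM in shZMAT2-2, against 380.0, 207 and 364 FPKM in the control. Control replicates 1 and 3 were above every knockdown library and control replicate 2 was below them all. The log2 fold change of SCD was -0.24 in the mean of both arms (95% interval -0.80 to 0.32).

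FADS1 and FADS2, the desaturases of polyunsaturated fatty acid synthesis, are neighbours on chromosome 11 and share part of their span on opposite strands in the deposited table. FADS1 (ENSG00000149485, 61799627 to 61829318) had 28.8, 31.4 and 30.2 FPKM in shZMAT2-1 and 27.6, 32.7 and 28.2 FPKM in shZMAT2-2, against 43.0, 26.9 and 40.9 FPKM in the control. FADS2 (ENSG00000134824, 61792980 to 61867354) had 101, 90.2 and 99.8 FPKM in shZMAT2-1 and 72.1, 80.4 and 87.5 FPKM in shZMAT2-2, against 127, 84.0 and 126 FPKM in the control. In both genes control replicates 1 and 3 were above every knockdown library, and control replicate 2 was among or below them. The estimates for the mean of both arms were -0.27 (95% interval -0.69 to 0.14) for FADS1 and -0.33 (95% interval -0.76 to 0.11) for FADS2. For FADS2 the estimate was -0.19 in shZMAT2-1 and -0.46 in shZMAT2-2, and neither interval excluded 0. The sources used here do not give the strand setting of the counting, so reads of the 2 genes may have been split between them. FEN1, at 39.2 to 165 FPKM, also overlaps the start of FADS2 on its own strand.

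Activation and esterification were followed by ACSL3 and GPAM. ACSL3 (ENSG00000123983, chromosome 2, 222860942 to 222944639), a long-chain acyl-CoA synthetase of lipid droplets, had 19.1, 24.03 and 19.2 FPKM in shZMAT2-1 and 22.1, 23.2 and 19.5 FPKM in shZMAT2-2, against 24.6, 22.1 and 24.4 FPKM in the control. These groups overlapped, and the estimate was -0.16 (95% interval -0.50 to 0.19).

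GPAM (ENSG00000119927, chromosome 10, 112149865 to 112215377), the mitochondrial glycerol-3-phosphate acyltransferase, had 3.48, 4.74 and 4.39 FPKM in shZMAT2-1 and 3.36, 4.79 and 3.24 FPKM in shZMAT2-2. The control libraries had 9.16, 4.36 and 9.15 FPKM. Control replicates 1 and 3 were at about the same level, above every knockdown library, and control replicate 2 lay within the knockdown range. The means were 4.21 ± 0.647 FPKM in shZMAT2-1, 3.80 ± 0.861 FPKM in shZMAT2-2 and 7.56 ± 2.77 FPKM in the control (SD, n = 3 each). The log2 fold change was -0.66 (SE 0.26, 95% interval -1.25 to -0.08) in shZMAT2-1 and -0.79 (SE 0.26, 95% interval -1.38 to -0.20) in shZMAT2-2. In the mean of both arms it was -0.73 (SE 0.23), with an unadjusted p of 0.0098 and a limma adjusted p of 0.34 over all tested genes. Without control replicate 2 it was -1.03 and passed (limma adjusted p = 0.017), and without any one of the other 8 libraries it lay between -0.80 and -0.57 and did not pass. Adjusted p-values over the 9 fits that leave out 1 library ran up to 0.76.

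SREBF1 (ENSG00000072310, chromosome 17, 17810399 to 17837002), the regulator, had 24.3, 19.4 and 25.4 FPKM in shZMAT2-1 and 15.6, 17.0 and 19.9 FPKM in shZMAT2-2, against 23.8, 14.7 and 23.2 FPKM in the control. The shZMAT2-1 libraries overlapped the control, as did the shZMAT2-2 libraries. The estimate was 0.18 (SE 0.23) in shZMAT2-1, -0.20 (SE 0.23) in shZMAT2-2 and -0.01 (95% interval -0.45 to 0.43) in their mean. A change of the SREBF1 transcript level was thus not detectable, and the processing of the SREBP1 protein was not measured here. RAI1 overlaps SREBF1 on the opposite strand, at 4.81 to 6.73 FPKM.

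**Figure D2:**
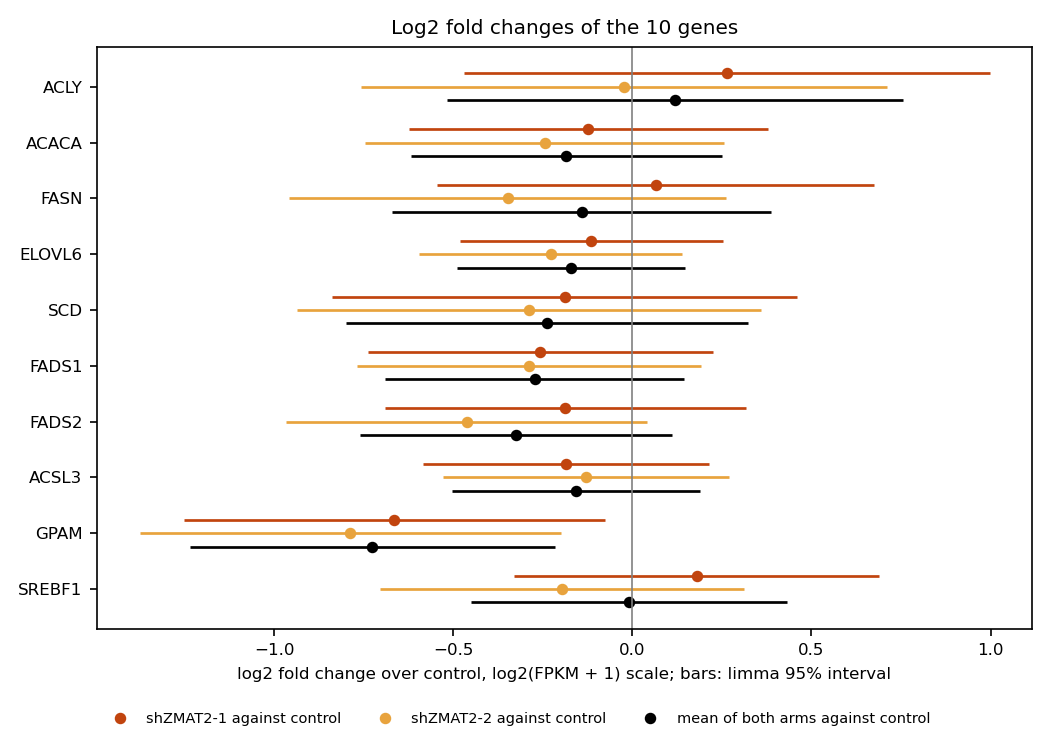
Log2 fold change on the log2(FPKM + 1) scale of the 10 genes in shZMAT2-1, in shZMAT2-2 and in the mean of both arms, each against the control. Points are limma estimates and bars are 95% intervals. GPAM lies below 0 with its whole interval in each comparison (-0.66, -0.79 and -0.73), and the intervals of the other 9 genes include 0.

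Promoter sequence is shown for GPAM, whose estimate was furthest from 0, for SCD, the most abundant of the 10, and for SREBF1, the regulator, whose estimate was nearest to 0. RefSeq promoter windows of build GRCh38.p14, 250 bases before and 50 bases after an annotated start, matched 9 of the 10 genes with 13 windows, since ACACA, ACLY and FADS2 have more than 1. FASN was not matched. The starts are RefSeq's and may not be those used in these cells. The windows are chr10:112183716-112184015 on the minus strand for GPAM, chr10:100346983-100347282 on the plus strand for SCD and chr17:17836937-17837236 on the minus strand for SREBF1. Each is written 5′ to 3′ on the gene's own strand, with capitals marking matches to CCAAT or GGGCGG on either strand, which do not overlap each other in these 3 windows.
GPAM: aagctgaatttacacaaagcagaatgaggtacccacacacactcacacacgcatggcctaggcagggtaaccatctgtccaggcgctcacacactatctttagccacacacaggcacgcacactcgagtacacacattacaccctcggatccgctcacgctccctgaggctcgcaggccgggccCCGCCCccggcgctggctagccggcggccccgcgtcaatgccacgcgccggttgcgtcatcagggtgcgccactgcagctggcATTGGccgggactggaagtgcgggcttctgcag
SCD: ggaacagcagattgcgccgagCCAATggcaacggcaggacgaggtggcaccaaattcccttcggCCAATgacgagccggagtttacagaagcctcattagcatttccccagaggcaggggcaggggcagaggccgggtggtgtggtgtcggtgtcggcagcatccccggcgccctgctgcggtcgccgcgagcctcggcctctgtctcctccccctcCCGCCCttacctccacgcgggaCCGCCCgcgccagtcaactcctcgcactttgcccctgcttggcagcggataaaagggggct
SREBF1: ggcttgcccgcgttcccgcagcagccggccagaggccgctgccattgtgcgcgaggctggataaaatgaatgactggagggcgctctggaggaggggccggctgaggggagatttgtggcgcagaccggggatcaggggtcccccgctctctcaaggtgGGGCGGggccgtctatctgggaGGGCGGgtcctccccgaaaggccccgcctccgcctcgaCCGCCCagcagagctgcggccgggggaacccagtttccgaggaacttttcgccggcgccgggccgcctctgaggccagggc
In the GPAM window the CCAAT match (ATTGG on the gene's strand) lies 18 to 22 bases after the start, whereas SCD has both of its CCAAT matches upstream of the start and SREBF1 has none. The letters CCAAT, the core bound by the NF-Y factor, occurred in 8 of the 13 windows and in 34.6% of all 35116 RefSeq promoter windows. The 8 came from 6 of the 9 matched genes: ACACA, ACLY, ACSL3, FADS2, GPAM and SCD. Of these, ACACA and FADS2 each also have a window without a match. GGGCGG, the GC box of Sp1, occurred in 11 of the 13 windows, from 9 of the 9 matched genes, and in 45% of all windows. The ACLY windows overlap and hold the same matches, which are thus counted more than once. The letters TCACNCCAC, a core of the sterol regulatory element bound by SREBP factors, and CACGTG, an E-box, occurred in 0 of the 13 windows, beside 1.13% and 7.26% of all windows. A match is a run of letters only, and its absence here says nothing of elements outside these windows.

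Scaling each library to a common total over nuclear genes narrowed the spread of several genes within the control. It widened the spread in ACSL3 and ELOVL6, where control replicate 2 became the highest control library (34.9 against 21.9 and 21.5 for ACSL3, and 14.3 against 9.15 and 9.84 for ELOVL6, in nuclear-scaled FPKM). GPAM was then at 2.90, 5.01 and 3.72 in shZMAT2-1 and 4.11, 5.00 and 3.22 in shZMAT2-2, against 8.16, 6.90 and 8.08 in the control, in nuclear-scaled FPKM. The 6 knockdown libraries lay below the 3 control libraries, with means of 3.88 ± 1.06, 4.11 ± 0.886 and 7.71 ± 0.704 (SD, n = 3 each) for shZMAT2-1, shZMAT2-2 and the control. On this scale GPAM passed narrowly in the mean of both arms (log2 fold change -0.82, limma adjusted p = 0.046), where 1.6% of all tested genes were called. It passed in neither arm alone, with -0.78 and a limma adjusted p of 0.091 in shZMAT2-2.

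FASN, at 98.8, 101 and 103 in shZMAT2-1 and 84.2, 92.4 and 94.0 in shZMAT2-2, against 116, 115 and 112 in the control, also separated on the nuclear scale. FADS1 was at 23.9, 33.2 and 25.6 in shZMAT2-1 and 33.7, 34.1 and 28.1 in shZMAT2-2, against 38.3, 42.6 and 36.1 in the control. FADS2 was at 83.6, 95.3 and 84.6 in shZMAT2-1 and 88.0, 83.8 and 87.0 in shZMAT2-2, against 113, 133 and 111 in the control. In FADS1 and FADS2 the 6 knockdown libraries again lay below the 3 control libraries, although neither passed in the mean of both arms (limma adjusted p = 0.29 and 0.097), nor did FASN (0.34). In all, 4 of the 10 genes (FADS1, FADS2, FASN and GPAM) had every knockdown library below every control library, beside 2.42% of all tested genes in that direction. The 10 were listed with earlier results of these data known, so this count is no independent test of the pathway. Both arms share the same 3 control libraries, and reads of FADS1 and FADS2 may have been split between them. Taking each arm alone, 5 of the 10 did so in shZMAT2-1 (SCD and the same 4), beside 5.75% of tested genes, and 5 in shZMAT2-2 (SREBF1 and the same 4), beside 5.11%. In the FPKM as deposited 0 of the 10 did, beside 1.83% in shZMAT2-1, 1.52% in shZMAT2-2 and 0.685% over both arms. No gene of the 10 had every knockdown library above the control on either scale.

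**Figure D3:**
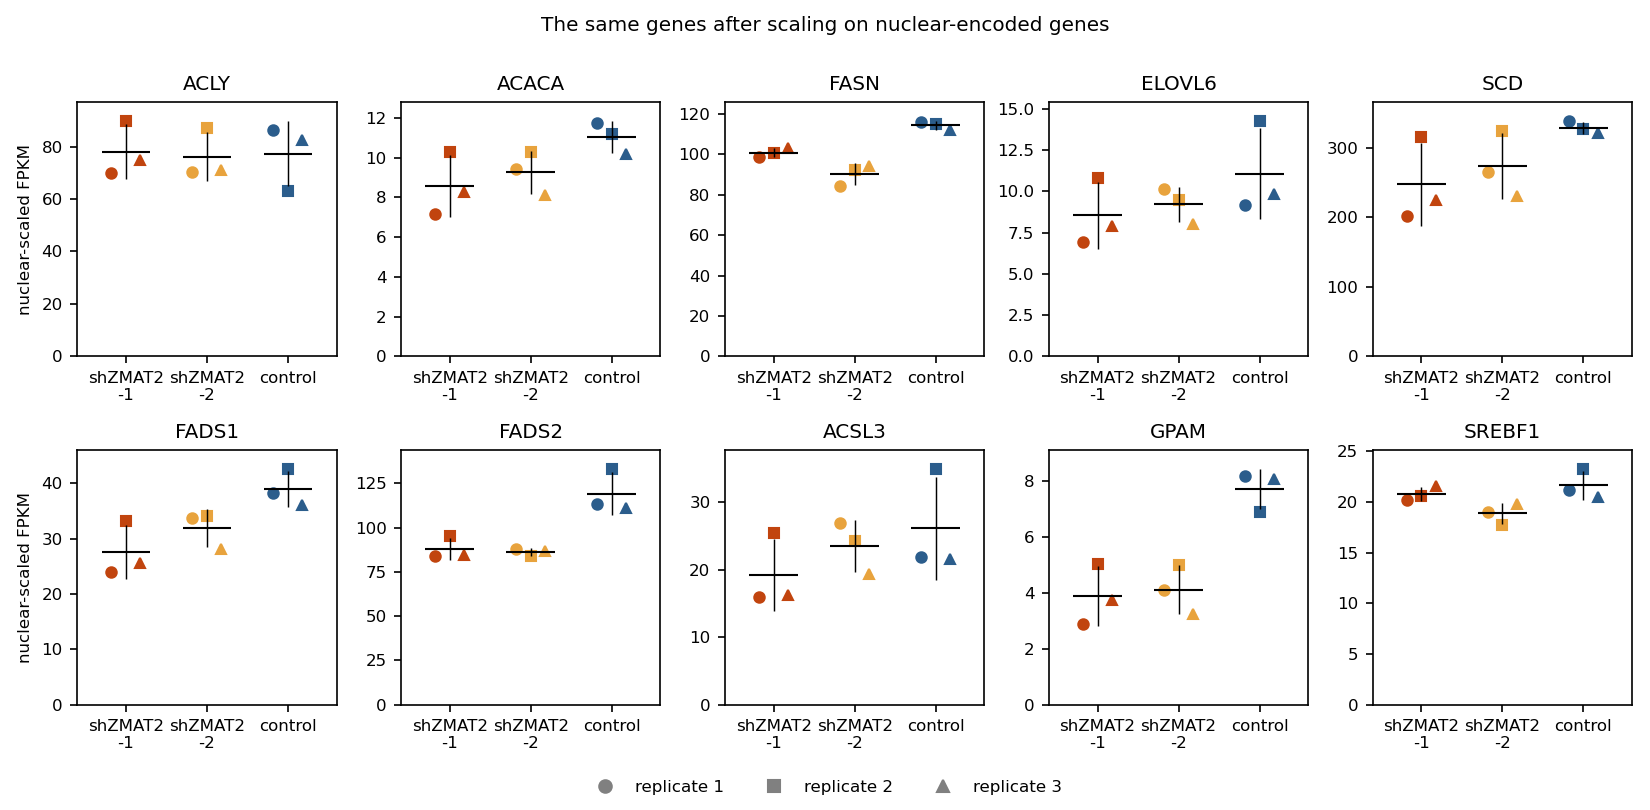
Nuclear-scaled FPKM of the 10 genes (1 panel each, linear axis from 0) in shZMAT2-1, shZMAT2-2 and the control, with points for libraries and lines for the mean and SD. For GPAM the knockdown libraries sit at 2.90 to 5.01 and the control libraries at 6.90 to 8.16.

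The arms were also set against each other directly. Of the 10 genes, 9 had a lower estimate in shZMAT2-2 than in shZMAT2-1, with a median log2 difference of -0.12, beside 61.1% and a median of -0.09 over all tested genes. The direction turned on the nuclear scale, where 4 of 10 were lower (median 0.091, beside 0.11 over all tested genes), and likewise 4 of 10 with the mitochondrial covariate (median 0.073) and with quantile normalization (median 0.017). None of the 10 passed, and limma called 0 of the 11245 tested genes, or 0%, with 465 at an unadjusted p under 0.05, none of them among the 10. ACLY, FADS2 and FASN had all shZMAT2-2 libraries below all shZMAT2-1 libraries, 3 of the 10 beside 9.28% of tested genes. On the nuclear scale FASN and SREBF1 did, 2 of the 10 beside 6.68%. For GPAM the difference between the arms was -0.12 (95% interval -0.71 to 0.46) in FPKM and 0.08 on the nuclear scale.

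Differences between replicates of 1 group were set beside base composition. In shZMAT2-1, replicate 2 minus the mean of replicates 1 and 3 ran from -0.34 for SREBF1 to 0.31 for ACSL3 on the log2 scale. SREBF1 and FASN have 64.7% and 65.3% GC in their longest transcript, and ACSL3 has 38.1%, the lowest of the 10. Pearson's r between this difference and GC content was -0.98 over the 10 genes, beside -0.50 over 10262 tested genes with a known transcript. In shZMAT2-2, replicate 1 against the other 2 gave -0.64 over the 10 genes and -0.51 over the same set of tested genes. In control replicate 2 all 10 genes were lower than in the other control libraries, by 0.15 for ACSL3 up to 1.23 for ACLY on the log2 scale. The median difference over all tested genes was -0.62 there, so the shift was common to the library. GC content gave r = -0.33 and -0.32 over the 10 genes and over the tested genes. These correlations are descriptions, since the genes share libraries. GPAM and ELOVL6 are alike in GC content, at 41.0% and 41.2%, and in control replicate 2 GPAM was lower by 0.92 and ELOVL6 by 0.22. The part of composition in the differences between groups was not tested.

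Within a library the levels of GPAM and the other genes can be compared free of the library's scale. The ratio of GPAM to the geometric mean of the other 9 was 0.0882, 0.116 and 0.105 in shZMAT2-1 and 0.104, 0.123 and 0.0903 in shZMAT2-2, against 0.182, 0.140 and 0.187 in the control. The 6 knockdown libraries lay below the 3 control libraries, control replicate 2 included. This ratio was formed for GPAM only, the gene whose estimate was furthest from 0. The share of tested genes whose ratio to the same 9 genes separates was not computed. The ratio does not remove differences of base composition. GC content is 41.0% in GPAM and runs from 38.1% in ACSL3 to 65.3% in FASN over the other 9. The part of composition in this ratio was not tested. The ratios of FADS2 to FADS1 and of SCD to ELOVL6 overlapped between the groups. FADS2 to FADS1 averaged 3.22 ± 0.321 in shZMAT2-1, 2.72 ± 0.334 in shZMAT2-2 and 3.05 ± 0.0856 in the control (SD, n = 3 each).

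The surrounding pathways were read from 12 lists of lipid genes, which hold 144 genes besides the 10. Of these, 143 were in the table and 113 passed the filter on low values. By limma 0 of the 113 passed in either arm, in the mean of both arms or between the arms. At an unadjusted p under 0.05 there were 4 in shZMAT2-1, 6 in shZMAT2-2 and 8 in the mean of both arms, each with an estimate above 0, and 3 between the arms. These are 3.54%, 5.31%, 7.08% and 2.65% of the 113, beside 5.76%, 7%, 6.93% and 4.14% of all tested genes. In the blocked fit of shZMAT2-1 and the control 4 of the 113 passed, beside 2.21% of all tested genes. All were higher: SLC25A1, the mitochondrial citrate carrier, ACADS, an acyl-CoA dehydrogenase of fatty acid oxidation, CPT1A and PNPLA2. They are named here after their values were seen. The median log2 fold change of the 113 genes was 0.30 in shZMAT2-1, 0.02 in shZMAT2-2 and 0.15 in the mean of both arms, beside 0.16, 0.05 and 0.10 over all tested genes. In shZMAT2-1 72.9% of all tested genes had an estimate above 0, and in shZMAT2-2 58.4%. The counts per list that follow were made on deposited FPKM only, and such counts can turn with the scaling. On the nuclear scale the median of all tested genes was -0.03 in shZMAT2-1 and 0.06 in shZMAT2-2, and with TPM 0.37 and 0.04. Of the sterol targets of SREBP2, 12 of 12 were above 0 in shZMAT2-1 (median 0.36) and 3 of 12 in shZMAT2-2 (median -0.17). Of the phospholipid synthesis genes, 12 of 13 were above 0 in shZMAT2-1 (median 0.34) and 6 of 13 in shZMAT2-2 (median -0.05). Of the other glycerolipid and triglyceride synthesis genes, 10 of 14 were above 0 in shZMAT2-1 (median 0.09) and 8 of 14 in shZMAT2-2 (median 0.05). Fatty acid oxidation genes were above 0 in 14 of 16 cases in shZMAT2-1 (median 0.37) and 9 of 16 in shZMAT2-2 (median 0.02). Genes of lipid droplet coats and lipolysis were above 0 in 7 of 8 cases in shZMAT2-1 (median 0.33) and 3 of 8 in shZMAT2-2 (median -0.03).

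In the mean of both arms the smallest adjusted p-values among these genes were those of CPT1A and PNPLA2, each the only gene of its list at an unadjusted p under 0.05. CPT1A, the carnitine palmitoyltransferase that admits fatty acids to mitochondrial oxidation, had 7.32, 8.10 and 9.39 FPKM in shZMAT2-1 and 9.40, 11.3 and 10.4 FPKM in shZMAT2-2, against 4.80, 2.23 and 4.67 FPKM in the control. The groups did not overlap, and the log2 fold change of the mean of both arms was 1.11 (SE 0.21, limma adjusted p = 0.052). PNPLA2, the adipose triglyceride lipase, had 12.04, 11.5 and 12.3 FPKM in shZMAT2-1 and 9.35, 10.4 and 13.5 FPKM in shZMAT2-2, against 7.15, 5.41 and 6.69 FPKM in the control. These groups did not overlap either, and its log2 fold change was 0.75 (SE 0.16, limma adjusted p = 0.094). Among the other lipid genes NFYC and ELOVL7 also had every knockdown library above every control library. The share of all tested genes that separated upwards was not computed. CPT1A passed without control replicate 2 (0.84, limma adjusted p = 0.017), and on the nuclear scale it rose (1.03, limma adjusted p = 0.0042). Over the 9 fits that leave out 1 library its limma adjusted p ran up to 0.18. That of PNPLA2 ran from 0.065 to 0.31, so PNPLA2 passed in none of them. The ratio of CPT1A to GPAM, a pair chosen after its values were seen, was 2.10, 1.71 and 2.14 in shZMAT2-1 and 2.79, 2.36 and 3.22 in shZMAT2-2, against 0.525, 0.511 and 0.510 in the control. The 3 control libraries gave nearly the same ratio, control replicate 2 included.

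Closer to the 10 genes, ELOVL2, an elongase of polyunsaturated chains, averaged 26.5 ± 9.51 FPKM in shZMAT2-1 and 35.5 ± 5.49 FPKM in shZMAT2-2, against 19.6 ± 4.33 FPKM in the control (SD, n = 3 each; log2 fold change 0.61, limma adjusted p = 0.56). CYB5R3, a reductase of the electron chain that feeds desaturases, had a log2 fold change of 0.55 (limma adjusted p = 0.56). ACACB, the carboxylase isoform at mitochondria, and AGPAT5, an acyltransferase of the step after GPAM, had estimates below 0, at -0.10 and -0.31. SREBF2, the sterol regulator, had 0.36, DGAT2, which completes triglycerides, 0.33, and PRKAA2, a catalytic subunit of AMP-activated kinase, 0.43 (limma adjusted p = 1.0, 1.0 and 0.56). These log2 fold changes are all for the mean of both arms.

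**Figure D4:**
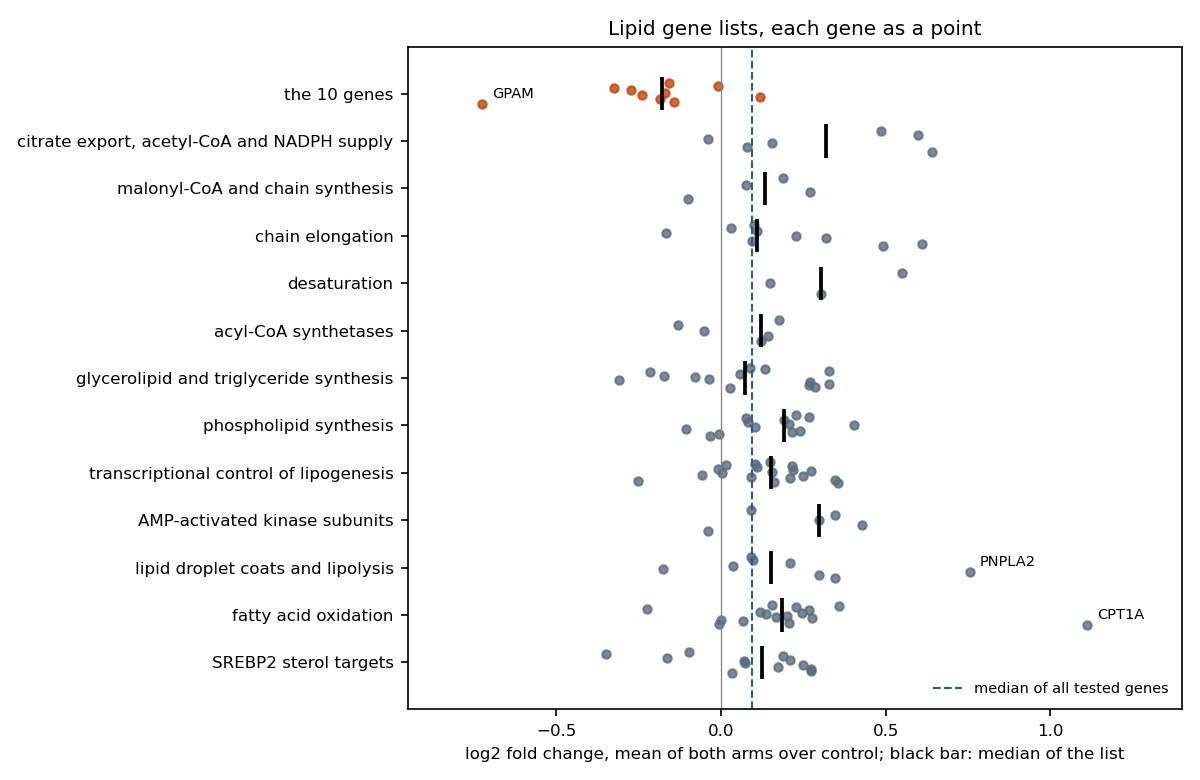
Log2 fold change, mean of both arms over control, for the tested genes of the 10 and of the 12 lists of other lipid genes, 1 row per list. Points are genes, black bars are medians of the lists, and the dashed line is the median of all tested genes, 0.10. The median lies at -0.18 for the 10 genes and at 0.15 over the 113 other genes.

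**Figure D5:**
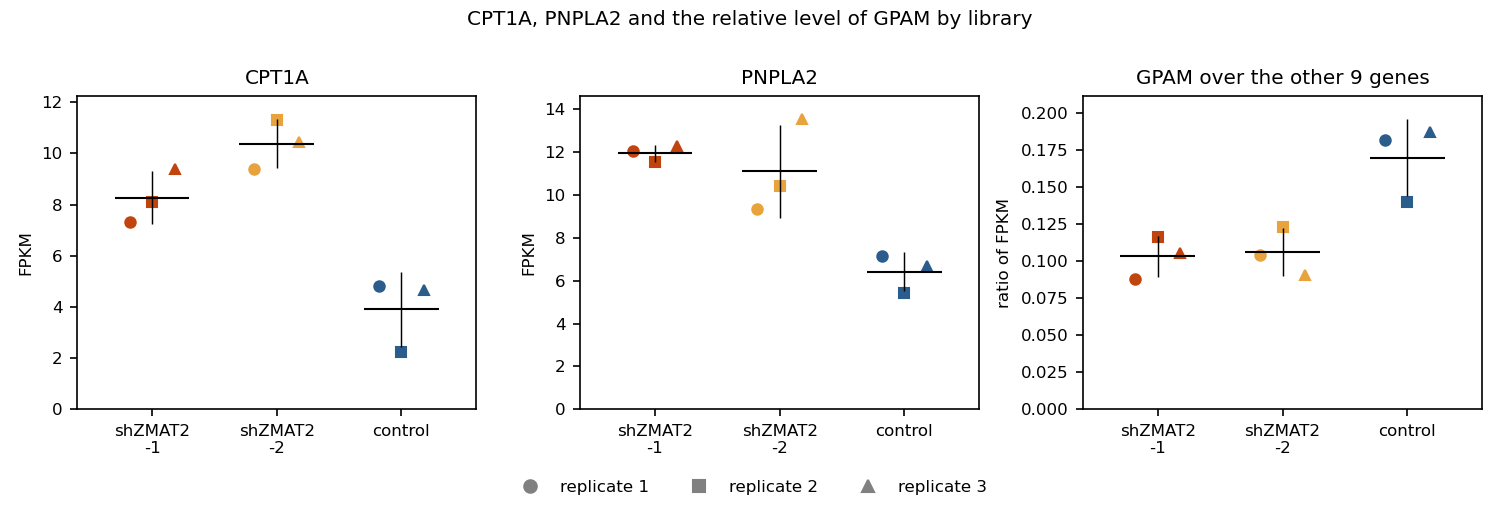
FPKM of CPT1A and PNPLA2 and the ratio of GPAM to the geometric mean of the other 9 genes in each library of shZMAT2-1, shZMAT2-2 and the control (linear axes from 0), with lines for the mean and SD. CPT1A lies at 7.32 to 11.3 FPKM in the knockdown libraries and at 2.23 to 4.80 FPKM in the control libraries, and the GPAM ratio at 0.0882 to 0.123 and at 0.140 to 0.187.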

How the data were processed

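The authors deposited FPKM per gene, made with HISAT, featureCounts and DESeq2 per the submitters' processing notes, which give no versions. The genome build and the strand setting of the counting are not given in the sources used here. Coordinates are those of the deposited table. All 9 sample columns were used. Depth was recovered from single-exon genes, with lengths from GENCODE release 29, where 99.9% to 100% of 704 to 816 values per library were whole within 0.1 fragments. The tests covered 11245 of 27421 genes, those that reached 1 FPKM in 3 or more of the 9 libraries, and all 10 genes were among them. On log2(FPKM + 1), limma 3.58.1 (R 4.3.3, trended variance) fitted a group term to the 9 libraries together. Fold changes are log2 differences on this scale and are too small for genes of low level. Adjusted p-values are two-sided and Benjamini-Hochberg over all tested genes, and a call needs one under 0.05. No count test was run, because the deposited values are FPKM.

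The members and lists were chosen with earlier results of these data known. Genes of the other lipid lists were named as the 3 with the smallest unadjusted p per list in the mean of both arms, of which the text draws on some, and the nearest profiles by the mean absolute log2 difference. On the nuclear scale, FPKM was divided by the library's sum over all but the 13 mitochondrially encoded genes and set to a common total. The alternatives were a pseudocount of 0.1, no filter, a filter of 5 FPKM, TPM, median-of-ratios scaling, quantile normalization, scaling on nuclear genes, a replicate block, a mitochondrial covariate, no trend, only the groups compared, and leaving out libraries. Deviations from the group means correlated between same-numbered libraries at 0.61 to 0.78 for shZMAT2-1 and the control, which meets the limit for pairing by number from the data alone. They ran from -0.76 to 0.61 for shZMAT2-2 and the control and from -0.63 to 0.63 for the arms, which does not. A blocked fit of shZMAT2-1 and the control was therefore added after seeing the data. The procedure was tested on simulated data. Python 3.11.15, numpy 2.4.6, pandas 2.3.3 and matplotlib 3.10.9 served for the other steps.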

Additional observations from a re-analysis of the deposited data

How the results depend on the processing

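Values given for a setting are log2 fold changes unless called counts, and the fits that leave out 1 library are given as ranges. The number of the 10 genes called, 0 in each comparison with all libraries, became 1 in shZMAT2-1 with quantile normalization, with the mitochondrial covariate and without both control replicate 2 and shZMAT2-1 replicate 2. Of all tested genes, 0.703%, 3.73% and 1.24% were called in these fits. In shZMAT2-2 the number of the 10 became 1 with either median-of-ratios or quantile scaling, 2 with the covariate, 7 without both libraries and 0 to 1 over the fits that leave out 1 library. The shares of all tested genes were 1.72%, 1.73%, 9.84% and 30.2%, and 2.4% without control replicate 2, where the 1 was called. In the mean of both arms the number of the 10 became 1 with median-of-ratios, quantile and nuclear scaling, 2 with the covariate, 2 without both libraries and 0 to 1 leaving out 1 library. The shares of all tested genes were 1.89%, 1.86%, 1.6%, 9.75% and 4.1%, and 1.33% without control replicate 2, where the 1 was called. Between the arms 2 of the 10 were called without both libraries, beside 42.3% of all tested genes. The 7 were GPAM, FASN, ACACA, SCD, FADS1, FADS2 and SREBF1, all lower, in a fit that called 759 genes higher and 2637 lower. In that fit the mitochondrial share is 14.5% to 27.0% in the shZMAT2-2 libraries and 7.86% and 8.28% in the remaining controls. GPAM in the mean of both arms was called at -0.82 with median-of-ratios scaling, -0.84 with quantile normalization, -0.74 with the covariate and -1.07 without both libraries. It did not pass with TPM (limma adjusted p = 1.0) or a pseudocount of 0.1 (0.37), and a filter of 5 FPKM left it out.

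Other lipid genes called, 0 of 113 with all libraries, became 1, 1 and 5 in shZMAT2-1 with median-of-ratios scaling, quantile normalization and the covariate. The shares of all tested genes were 0.685%, 0.703% and 3.73%. With the replicate block on the shZMAT2-1 and control libraries alone, chosen after seeing the data, the other lipid genes called became 4 in shZMAT2-1, beside 2.21% of all tested genes. In shZMAT2-2 the other lipid genes called became 1, 1, 1 and 16 with median-of-ratios, quantile and nuclear scaling and the covariate, 44 without both libraries and 0 to 3 leaving out 1. The shares of all tested genes were 1.72%, 1.73%, 1.43% and 9.84%, and 30.2% without both. The share was 2.4% without control replicate 2, the fit with 3. In the mean of both arms the other lipid genes called became 2, 2, 1 and 16 with the same settings, 6 without both libraries and 0 to 1 leaving out 1. The shares of all tested genes were 1.89%, 1.86%, 1.6% and 9.75%, and 4.1% without both. Between the arms 58 were called without both libraries, beside 42.3% of all tested genes. ZMAT2 in the mean of both arms did not pass with TPM (-0.98) and ran from -1.13 to -1.004 leaving out 1 library, missing the threshold in 5 of 9 fits (limma adjusted p up to 0.095).

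Of 836 estimates of the 10 genes under alternatives 49 changed sign, none of them past the threshold, and the cause was not tested. With TPM these were ACACA 0.080, SCD 0.035, ELOVL6 0.091, FADS2 0.036 and ACSL3 0.028 in shZMAT2-1, SREBF1 0.097 in the mean of both arms and ACSL3 -0.17 between the arms. With median-of-ratios scaling they were FASN -0.10 in shZMAT2-1 and FADS1 0.063 between the arms. With quantile normalization they were FASN -0.23 and SREBF1 -0.060 in shZMAT2-1, ACLY -0.0016 in the mean, and ACACA 0.013, SCD 0.26, ELOVL6 0.020, FADS1 0.18 and FADS2 0.026 between the arms. On the nuclear scale they were FASN -0.18 and SREBF1 -0.055 in shZMAT2-1, and GPAM 0.076, ACACA 0.11, SCD 0.15, ELOVL6 0.11 and FADS1 0.21 between the arms. With the covariate they were FASN -0.10 in shZMAT2-1, ACLY 0.14 in shZMAT2-2, and GPAM 0.12, ACACA 0.089, ACLY 0.087, SCD 0.14 and FADS1 0.14 between the arms. Without both libraries they were FASN -0.097 and ACLY -0.14 in shZMAT2-1 and ACLY -0.29 in the mean. Leaving out 1 library, the ranges that crossed 0 in shZMAT2-1 were ACACA -0.37 to 0.042 (-0.39 without both libraries), FASN -0.21 to 0.21, ACLY -0.15 to 0.48 and SREBF1 -0.035 to 0.30. In shZMAT2-2 ACLY ran from -0.43 to 0.20. In the mean FASN ran from -0.41 to 0.0039, ACLY from -0.29 to 0.34 and SREBF1 from -0.22 to 0.11, and between the arms SCD from -0.26 to 0.0022 and FADS1 from -0.11 to 0.012.

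With the replicate block on all 9 libraries the count of the 10 genes called was 0 in each comparison, and GPAM in the mean of both arms stayed at -0.73 (limma adjusted p = 0.42). Only 3 of the 9 libraries correlated best with their own number. With 3 libraries a group and 1 control library of high mitochondrial share, the 95% intervals of the 9 genes other than GPAM leave room for changes of up to 0.80 downwards and 0.76 upwards on the log2 scale in the mean of both arms.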

Other observations

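The genes whose profile over the 9 libraries was most like that of GPAM, by the mean absolute difference of centred log2(FPKM + 1), were LGSN (0.13), GJA1 (0.13) and SLC7A2 (0.13). GJA1, which encodes the gap junction protein connexin 43, had 43.3, 44.1 and 44.8 FPKM in shZMAT2-1 and 33.1, 44.8 and 35.2 FPKM in shZMAT2-2, against 71.9, 34.3 and 67.2 FPKM in the control. SLC7A2, a carrier of cationic amino acids, had 13.2, 17.5 and 16.0 FPKM in shZMAT2-1 and 12.2, 16.5 and 11.6 FPKM in shZMAT2-2, against 24.6, 13.1 and 23.2 FPKM in the control. Both had control replicates 1 and 3 above every knockdown library and control replicate 2 within or near the knockdown range, as GPAM did. The profiles nearest to SCD were closer, with TBC1D4 at 0.034, ERMP1 at 0.043 and PRKD1 at 0.051, and those nearest to SREBF1 were TMEM128 at 0.034, HINFP at 0.046 and CDK5RAP3 at 0.046. These distances are descriptions over 9 libraries that differ in mitochondrial share.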
